A study of Mus musculus with 19 samples.

Results

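The genes described here move lipid and cholesterol between, into and out of brain cells. They are 10 of the 48709 genes counted in 19 mouse hippocampal libraries, and were taken by name as genes of lipid handling and cholesterol efflux. These 10 and the other gene lists below were chosen with earlier results of these data known. Counts set beside the share of all genes, and p-values of marker sums, do not allow for that choice. Apoe, Apoc1 and Lpl act on lipoproteins, Abca1 and Abcg1 export cholesterol, Ch25h, Soat1 and Plin2 oxidise, esterify or store lipid, and Npc2 and Lipa free cholesterol in the lysosome. All 10 passed the filter on low counts, as did 19286 genes in all. In the brain, glial cells make apolipoprotein E particles and load them with cholesterol through ATP-binding cassette transporters. Lipid taken up again, as lipoprotein or as cell and myelin debris, is broken down in lysosomes. The freed cholesterol is exported, oxidised to oxysterols that activate liver X receptors, or esterified and kept in droplets. Several genes of this circuit are known to be switched on in activated microglia, the resident phagocytes of the brain.

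The libraries were made from polyadenylated RNA of the microdissected CA1 region of male wild-type C57B/6J mice. The young group (n = 6) was 3 months old, and the old control group (n = 6) and the old anti-miR-mix group (n = 7) were 16.5 months old. Every animal, young ones included, had received lipid nanoparticles by injection into the dorsal hippocampus: young and old control mice with scrambled control oligonucleotides, anti-miR-mix mice with a mix of inhibitors of miR-148a-3p, miR-146a-5p and also miR-181a-5p. No uninjected animals and no treated young animals were analysed here, and the tissue held all cell types of the region. In such bulk tissue fewer cells of a type and less RNA per cell cannot be told apart.

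Total counts lay between 26653511 and 38908947 reads per library. Markers of CA1 pyramidal neurons were present in every group, with a summed level of 773.5 to 1125 CPM (reads scaled to a common library size). Old control 5 and 6 were closer to each other than any other pair of libraries in a group, with a chi-square per degree of freedom of 2.18 over 12780 genes against at least 6.10 elsewhere. They still differed by more than sampling noise, which does not settle whether they came from separate animals. They were kept as separate libraries, as labelled, and the calls and marker sums below that rest on them were also computed with both summed as 1 library. The deposited log2 values have a term removed that follows a number, 1 to 4, assigned to each library, whose origin is not described and which is called the processing group here. Processing group 3 held 3 old anti-miR-mix, 2 young and 0 old control libraries.

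In old anti-miR-mix animals, 4 of the 10 genes were higher than in old control, where 0.669% of all tested genes were: Npc2, Apoe, Plin2 and Ch25h. The folds were modest for Npc2 (1.29) and Apoe (1.24) and larger for the low-level genes Plin2 (1.77) and Ch25h (2.58). With age alone, between old control and young, none of the 10 passed edgeR's test, against 2.67% of all genes in either direction, and Apoe came closest at 1.17-fold. Against young animals, the old anti-miR-mix group had 6 of the 10 genes higher, namely Apoe, Apoc1, Abca1, Ch25h, Plin2 and Npc2, against 4.57% of all genes, and none lower. The 4 calls between the old groups did not hold once processing group was a factor in the fit, whereas the 6 against young did. With its number as a linear term, 2 of the 10 genes were called between the old groups, as were 93 of all tested genes. Below, processing group in the fit means the factor unless the linear term is named.

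The agents of the treatment and their possible sites in these genes are shown first, to show which of the 10 hold a match to the targeted microRNAs. A microRNA pairs with messenger RNA mainly through its seed, bases 2 to 8, in capitals here in the mature sequences from RefSeq. In the inhibitors, as listed by the study, capitals mark the bases that pair with the seed.
miR-146a-5p: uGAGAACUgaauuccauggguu
inhibitor of miR-146a-5p: acccatggaattcAGTTCTC
miR-148a-3p: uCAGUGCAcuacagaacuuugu
inhibitor of miR-148a-3p: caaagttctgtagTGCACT
miR-181a-5p: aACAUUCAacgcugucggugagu
inhibitor of miR-181a-5p: actcaccgacagcgtTGAATG
The inhibitors were complementary to positions 2 to 21, 3 to 21 and 3 to 23 of their microRNAs. Of 1679 mature mouse microRNAs in RefSeq, 2 share the seed of miR-146a-5p, 3 that of miR-148a-3p (with miR-148b-3p and miR-152-3p) and 4 that of miR-181a-5p.

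In the target lists used by the study, Abca1 was a predicted target of miR-148a-3p, and Lipa of miR-148a-3p and miR-146a-5p. The other 8 genes were in none of the 3 lists. A search of the 3′UTR of the principal transcript of each gene (GENCODE M21, GRCm38) for the complement of bases 2 to 8, on the transcribed strand, gave matches in 6 of the 10: Lpl, Abca1, Soat1, Plin2, Npc2 and Lipa. The motif of miR-148a-3p, TGCACTG, was in 3 genes and in 13.8% of all 15219 3′UTRs. The motif of miR-146a-5p, AGTTCTC, was in 3 genes and in 11.3% of 3′UTRs, and that of miR-181a-5p, TGAATGT, was in 2 genes and in 16.9%. These shares were not matched for length, and a longer 3′UTR has more places for a match. Among the 10 genes the 3′UTR ran from 95 bases (Apoc1) to 6534 (Soat1). The sites of the listed targets, and of the called genes Plin2 and Npc2, are printed with the match in capitals and with their GRCm38 position, all on the minus strand.
Abca1, miR-148a-3p, chr4:53033882-53033903: gcgaggtcttccttTGCACTGt
Abca1, miR-148a-3p, chr4:53030973-53030994: aatggatctattttTGCACTGg
Lipa, miR-148a-3p, chr19:34492831-34492852: cttgaaaagcagttTGCACTGa
Lipa, miR-146a-5p, chr19:34493180-34493201: aaacctacaatcctAGTTCTCc
Lipa, miR-146a-5p, chr19:34493063-34493084: aacccaaagtactcAGTTCTCa
Plin2, miR-146a-5p, chr4:86656852-86656873: ggccctggcacaggAGTTCTCt
Npc2, miR-181a-5p, chr12:84755293-84755315: ccagttattcagctgTGAATGTg
The first Abca1 site begins 54 bases past the stop codon and the second 2963 bases past it, in a 3′UTR of 3156 bases. Among the genes with a match, Npc2 and Plin2 were called in the old anti-miR-mix group against old control, and Abca1, Lipa, Lpl and Soat1 were not. Apoe and Ch25h, which were called, held no 7-base match. These are matches of letters only, and binding was not measured.

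**Figure D1:**
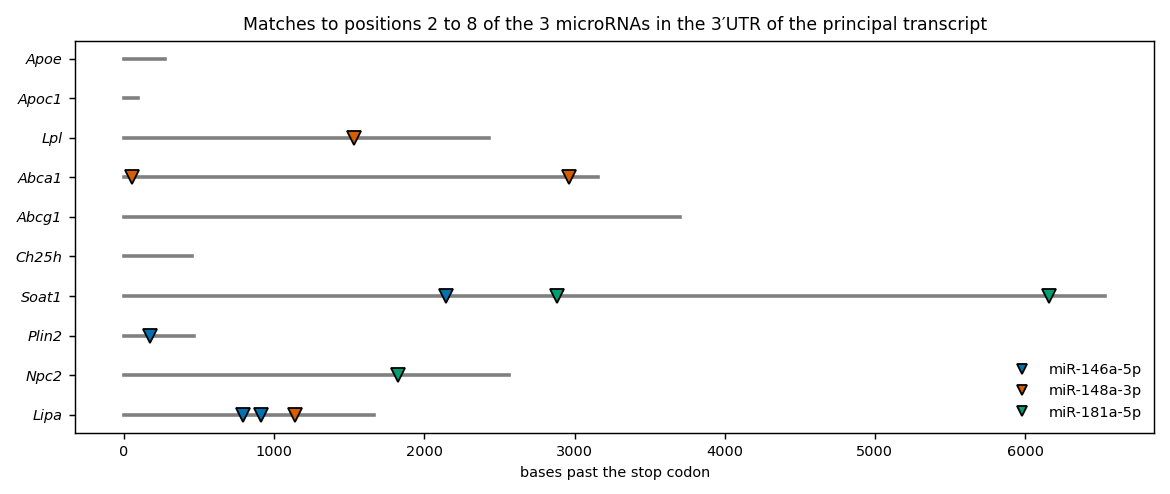
Map of the 3′UTR of each gene's principal transcript (grey line, in bases past the stop codon) with the 7-base matches to each of the 3 microRNAs (triangles). Lipa carries 3 matches within 1662 bases, Abca1 carries 2 matches to miR-148a-3p, and Apoe, Apoc1, Abcg1 and Ch25h carry none.

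The genes differed widely in level. Expressed as CPM per kilobase of the principal transcript, over all 19 libraries, Apoe stood at 938 (between 679 and 1328 in single libraries), far above Npc2 at 19.4 and Abcg1 at 12.4. Lipa at 8.39, Abca1 at 7.82, Lpl at 7.20 and Soat1 at 6.14 followed, and neighbours in this order overlapped in their ranges over libraries. It also changed when the length of all annotated exons was used, by which Lipa came after Abca1 and Soat1. Plin2 reached 3.04, Apoc1 1.24 and Ch25h 0.90. The last 2 were counted at only 12 to 43 and 10 to 142 reads per library, and Ch25h shares 159 exon bases with an antisense RNA, Gm26902, from which its reads cannot be told apart without strand. Apoe and Apoc1 lie next to each other on chromosome 7, and Ch25h and Lipa on chromosome 19.

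**Figure D2:**
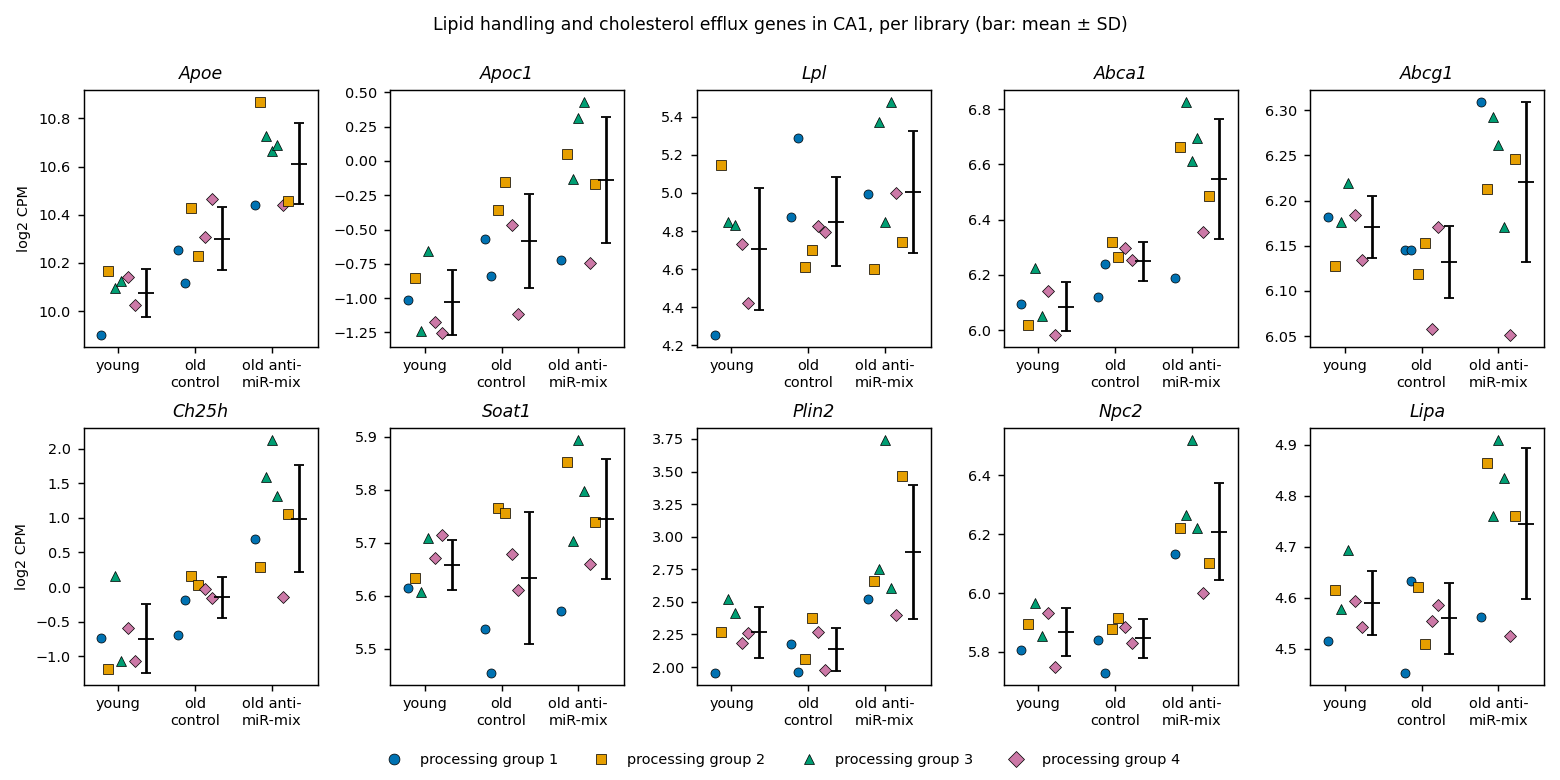
Level of each gene (log2 CPM) in each library of the young (n = 6), old control (n = 6) and old anti-miR-mix (n = 7) groups, in replicate order, coloured by processing group, with bars for the mean and SD. Plin2 and Npc2 of the old anti-miR-mix group lie above all old control values, and Lpl, Abcg1 and Soat1 overlap between all groups.

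Of the lipoprotein genes, Apoe (ENSMUSG00000002985, chromosome 7, 19696109 to 19699188) encodes the main cholesterol-carrying apolipoprotein of the brain. Its log2 CPM had a lowest, median and highest value of 9.90, 10.11 and 10.17 in young, 10.12, 10.28 and 10.46 in old control, and 10.44, 10.66 and 10.87 in old anti-miR-mix libraries. All 7 treated libraries were above all 6 young ones, and 4 of the 7 were above every old control, whose highest library, old control 6, exceeded the lowest treated value. The fitted log2 difference between old anti-miR-mix and old control was 0.32 (SE 0.071, edgeR adjusted p = 0.0408), and against young it was 0.54 (SE 0.0713, adjusted p = 6.76e-05). Between old control and young it was 0.23 (SE 0.0735, edgeR adjusted p = 0.0992), with 5 of 6 old control libraries above the highest young one. The call between the old groups held in 8 of 19 fits that each left out a library (0.27 to 0.35, edgeR adjusted p up to 0.125), and was lost without old anti-miR-mix 2, 3, 4 or 5, old control 1, 2, 4, 5 or 6, or young 5 or 6. The age difference did pass with DESeq2 (adjusted p = 0.0498), with the 2 groups alone (edgeR adjusted p = 0.0438) and with processing group in the fit (0.27, edgeR adjusted p = 0.0422).

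Apoc1 (ENSMUSG00000040564, chromosome 7, 19689481 to 19692660) encodes a small apolipoprotein that modulates lipid-transfer enzymes and receptors. Its reads numbered 12 to 22 per library in young, 12 to 27 in old control and 16 to 43 in old anti-miR-mix animals. In log2 CPM the medians were -1.09, -0.52 and -0.13, and neighbouring groups overlapped. The difference between old anti-miR-mix and young was 1.03 (SE 0.224, edgeR adjusted p = 0.00661), with 5 of 7 treated libraries above the highest young one. The steps that make it up, 0.51 with age (adjusted p = 0.264, edgeR) and 0.51 with treatment (adjusted p = 0.384, edgeR), did not pass. Lpl (ENSMUSG00000015568, chromosome 8, 68880491 to 68907448), the lipase that releases fatty acids from lipoproteins, varied widely within each group. It ranged from 4.25 to 5.15 in young, 4.61 to 5.29 in old control and 4.60 to 5.48 in old anti-miR-mix libraries, and all groups overlapped. Its difference between the old groups was 0.17 (95% interval -0.13 to 0.48, edgeR adjusted p = 0.733).

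Of the efflux transporters, Abca1 (ENSMUSG00000015243, chromosome 4, 53030787 to 53159895) passes cholesterol to lipid-poor apolipoproteins and is a classical liver X receptor target. Its log2 CPM had a lowest, median and highest value of 5.98, 6.07 and 6.22 in young, 6.12, 6.26 and 6.32 in old control, and 6.19, 6.61 and 6.83 in old anti-miR-mix libraries. The treated library lowest for Abca1, old anti-miR-mix 1, lay among the controls, and the other 6 lay above every control. The difference between the old groups was 0.31 (SE 0.0742, edgeR adjusted p = 0.0572), just short of the threshold. It passed with DESeq2 (adjusted p = 0.0109), without the count filter (edgeR adjusted p = 0.0440) and without old anti-miR-mix 1 (0.36, edgeR adjusted p = 0.00514) or old anti-miR-mix 6 (0.34, edgeR adjusted p = 0.0230). With processing group in the fit it was 0.20 (edgeR adjusted p = 0.506), and it stayed short of the threshold with the 2 groups alone (edgeR adjusted p = 0.125) and with old control 5 and 6 summed (edgeR adjusted p = 0.115). Against young it was 0.47 (SE 0.0745, edgeR adjusted p = 0.000374) and passed.

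Abcg1 (ENSMUSG00000024030, chromosome 17, 31057675 to 31117988), which passes cholesterol to mature lipoprotein particles, was the steadiest of the genes. Its log2 CPM lay between 6.13 and 6.22 in young, 6.06 and 6.17 in old control, and 6.05 and 6.31 in old anti-miR-mix libraries. The groups overlapped although 6 of 7 treated libraries were above every old control, since old anti-miR-mix 6 was below them all. The difference between the old groups was 0.09 (95% interval 0.02 to 0.17, edgeR adjusted p = 0.345). The difference with age was -0.04 (95% interval -0.12 to 0.04, adjusted p = 0.629, edgeR), so that a change of the size seen for Apoe lay outside both intervals.

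Ch25h (ENSMUSG00000050370, chromosome 19, 34473778 to 34475164) encodes cholesterol 25-hydroxylase, which makes the oxysterol 25-hydroxycholesterol and is inducible in macrophages. It had 10 to 35 reads per library in young, 21 to 31 in old control and 27 to 142 in old anti-miR-mix animals. In log2 CPM its lowest, median and highest values were -1.18, -0.90 and 0.16, then -0.69, -0.10 and 0.16, then -0.14, 1.05 and 2.13. All treated libraries but old anti-miR-mix 6 were above every control. The difference of 1.37 between the old groups (SE 0.308, edgeR adjusted p = 0.0413) was the largest of the 10, and without old anti-miR-mix 4, the highest library, it was 1.11 (edgeR adjusted p = 0.108). The call held in 7 of 19 fits that each left out a library (1.11 to 1.51, edgeR adjusted p up to 0.128), and was lost without old anti-miR-mix 3, 4, 5 or 7, any old control, or young 5 or 6. Against young it was 1.94 (SE 0.325, edgeR adjusted p = 0.000695), a 3.83-fold difference. With age it was 0.57 (SE 0.368, edgeR adjusted p = 0.441).

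Soat1 (ENSMUSG00000026600, chromosome 1, 156424525 to 156474331), which esterifies cholesterol for storage, lay between 5.61 and 5.71 in young, 5.45 and 5.77 in old control, and 5.57 and 5.89 in old anti-miR-mix libraries on the log2 CPM scale. All groups overlapped, and no comparison passed, with a difference of 0.11 between the old groups (95% interval 0.00053 to 0.22, edgeR adjusted p = 0.472). Plin2 (ENSMUSG00000028494, chromosome 4, 86648386 to 86670060) coats lipid droplets and is a usual marker of droplet-laden cells. Its lowest, median and highest log2 CPM were 1.95, 2.26 and 2.52 in young, 1.96, 2.12 and 2.38 in old control, and 2.40, 2.66 and 3.74 in old anti-miR-mix libraries. Every treated library was above every old control, by a narrow margin for old anti-miR-mix 6, and old anti-miR-mix 4 and 7, at 3.74 and 3.47, stood well above the rest. The difference between the old groups was 0.83 (SE 0.187, edgeR adjusted p = 0.0423). Without either of these libraries it was 0.64 or 0.72 and did not pass (edgeR adjusted p = 0.0814 and 0.0810). It also did not pass without old anti-miR-mix 2, 3 or 5, old control 1, 2, 3, 5 or 6, or young 2, 5 or 6 (0.64 to 0.90 over all 19 fits, edgeR adjusted p up to 0.121). Against young it was 0.69 (SE 0.185, edgeR adjusted p = 0.0274), and there too it did not pass without old anti-miR-mix 4 or 7 (edgeR adjusted p = 0.0516 and 0.0602), nor without young 1, 5 or 6.

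In the lysosome, Lipa cleaves cholesteryl esters and Npc2 hands the freed cholesterol on to the export protein Npc1. Npc2 (ENSMUSG00000021242, chromosome 12, 84754562 to 84773152) had a lowest, median and highest log2 CPM of 5.75, 5.87 and 5.97 in young, 5.73, 5.86 and 5.92 in old control, and 6.00, 6.22 and 6.52 in old anti-miR-mix libraries. The treated group lay above both other groups with no overlap, while young and old control covered the same range. The difference between the old groups was 0.37 (SE 0.0609, edgeR adjusted p = 0.00773), and against young it was 0.35 (SE 0.0608, edgeR adjusted p = 0.000979). It was the one gene of the 10 whose call between the old groups held in all 19 fits that each left out a library, with differences of 0.31 to 0.40. With age the difference was -0.02 (95% interval -0.15 to 0.11, adjusted p = 0.898, edgeR).

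Lipa (ENSMUSG00000024781, chromosome 19, 34492318 to 34527474) had a median log2 CPM of 4.59 in young, 4.57 in old control and 4.76 in old anti-miR-mix libraries. Old anti-miR-mix 1 and 6, at 4.56 and 4.52, lay among the controls, and the other 5 lay between 4.76 and 4.91, above every control and every young library. The difference between the old groups was 0.19 (SE 0.0569, edgeR adjusted p = 0.153). It passed when either of those libraries was left out (0.22 without old anti-miR-mix 1 and 0.23 without old anti-miR-mix 6, edgeR adjusted p = 0.0460 and 0.0327). Against young the difference was 0.16 (SE 0.0568, edgeR adjusted p = 0.103).

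Set side by side, the 3 comparisons gave these counts. They share libraries, so they are not separate evidence of one another. Between old anti-miR-mix and old control, 4 of the 10 genes were called higher and 0 lower, as for all genes (0%; 3.35% at an unadjusted p under 0.05). The fitted difference was above 0 for all 10, with a median of 0.31 against 0.00035 over all tested genes, of which 50.2% were above 0. Plin2 and Npc2 had groups that did not overlap, as did 0.425% of all genes in this direction. Between old anti-miR-mix and young, 6 of 10 were called higher and 0 lower, where 1.63% of all genes were lower. The median was 0.41 against 0.0028, and Apoe and Npc2 had groups that did not overlap, as did 1.79% of all genes in this direction. Between old control and young, 0 of 10 were called by edgeR. At an unadjusted p under 0.05 there were 3 of 10 (Apoe, Apoc1 and Abca1, all higher; 9.14% of all genes were higher at that level), and DESeq2 called Apoe alone. With processing group in the fit edgeR called Apoe as well, where 1.28% of all genes were higher. The median difference with age was 0.05 against 0.0064 over all genes, with 5 of 10 above 0.

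**Figure D3:**
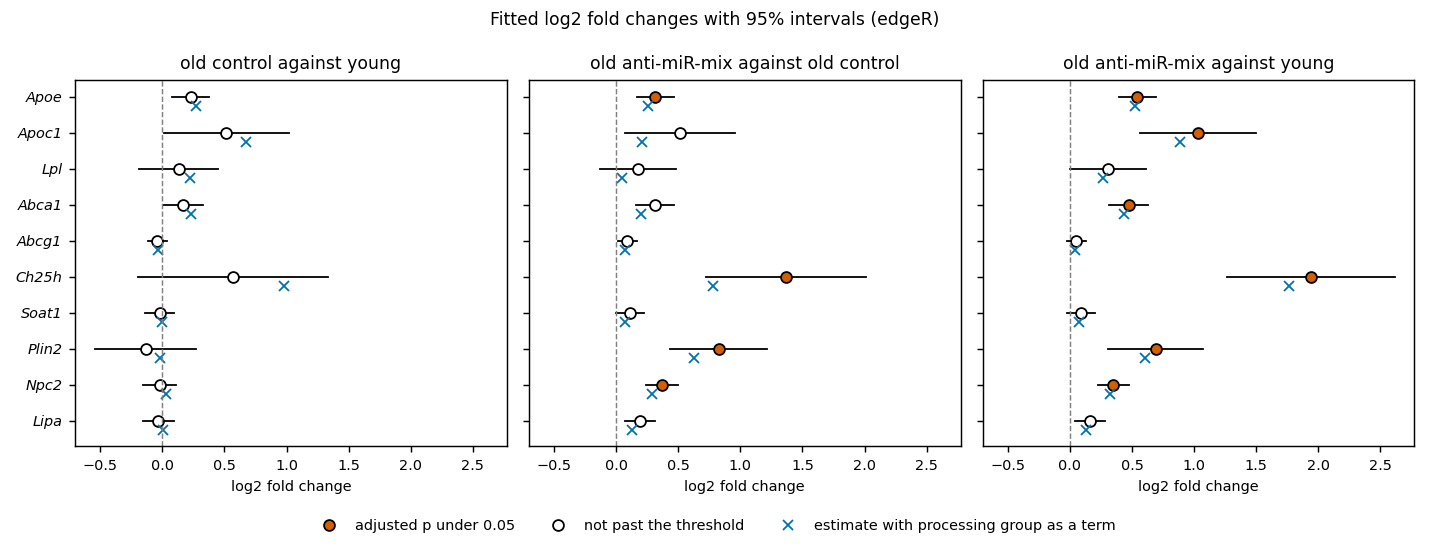
Fitted log2 fold change of each gene with its 95% interval (circles and lines, filled where the edgeR adjusted p is under 0.05) in the 3 comparisons, and the estimate with processing group in the fit (crosses). The crosses lie nearer 0 than the circles for all 10 genes between old anti-miR-mix and old control, and 6 genes are filled against young.

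Processing group moved with the calls between the old groups. With it as a factor, the 10 differences stayed above 0 but were smaller and none passed: Npc2 0.29 (edgeR adjusted p = 0.0825), Apoe 0.25 (0.244), Plin2 0.63 (0.420) and Ch25h 0.78 (0.568). In that fit 0.0467% of all genes were called higher. Within the 3 processing groups that hold both kinds of old animal, the differences were above 0 in all 3 for Apoe (0.05 to 0.33), Plin2 (0.27 to 0.85), Npc2 (0.14 to 0.35), Abca1 (0.01 to 0.28) and Soat1 (0.01 to 0.07). For Ch25h, 2 of 3 were above 0 (-0.04 to 1.14). Each of these values rests on 1 or 2 libraries per group and has no test of its own. Processing group 3 held the treated libraries with the 3 highest values of Ch25h and the highest of Plin2 and Npc2, and no old control. With old control 5 and 6 summed as 1 library, 1 of the 4 calls remained, that of Npc2 (0.37, edgeR adjusted p = 0.0244), while Apoe (0.33, edgeR adjusted p = 0.0643), Ch25h (1.37, edgeR adjusted p = 0.0941) and Plin2 (0.82, edgeR adjusted p = 0.0978) kept their size. Of all tested genes 33 were called in that fit, against 129 in the main one. Against young, the 6 calls held in each setting, and 5 (without Plin2) in both at once (4.5% of all genes were called higher with processing group in the fit), and within all 4 processing groups each of these 6 genes was higher in the treated animals.

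Microglial markers moved with the same groups. The summed level of 12 markers of activated microglia, none of them among the 10 genes, was 147.1 to 205.8 CPM in young, 167.3 to 248.1 in old control, and 228.6 to 455.3 in old anti-miR-mix libraries. Of the 12, 9 were called higher by edgeR between the old groups, 12 against young and 0 with age (7 at an unadjusted p under 0.05). The summed level of 12 markers of all microglia was 321.6 to 391.9, 392.2 to 436.8 and 420.7 to 545.2 CPM, with 2, 11 and 4 called higher in the same order. Both sums differed between the old groups (exact permutation test, two-sided, p = 0.00408 and 0.00583 over 1716 arrangements), in a test that takes no account of processing group. With old control 5 and 6 as 1 library the permutation p was 0.00505 and 0.0101 over 792 arrangements. Within the 3 processing groups that hold both kinds of old animal, both sums were higher in the treated animals in 3 of 3, by 0.22 to 0.58 and 0.09 to 0.24 on the log2 scale. Adjusted over all marker lists, the permutation p was 0.0291 for both sums. The shift was not confined to them. Sums of 8 border macrophage and 5 oligodendrocyte precursor markers were also higher, by 0.60 and 0.11 (exact permutation p = 0.00524 and 0.00816, adjusted 0.0291 and 0.0306). Within processing groups these were higher in 2 of 3 and 3 of 3. The sum of 7 pan-neuronal markers went the other way, with a log2 difference of -0.059 (exact permutation p = 0.0379, adjusted 0.0991). Within processing groups that sum was higher in 0 of 3. Against young its difference was -0.070 (exact permutation p = 0.00758, adjusted 0.0284). The calls of single markers between the old groups changed with the setting: with processing group in the fit 1 of the 12 activated and 1 of the 12 general markers were called, with the pair summed 4 and 1, and with both 1 and 0. The count of 9 activated markers lay between 3 and 11 when single libraries were left out, and was 3 to 6 without old anti-miR-mix 2, 3, 4 or 5 or old control 1, 2, 5 or 6. Against young the counts of 12 and 11 came to 12 and 10 to 11 in these settings. No marker of either list had a median of 0. The sum of 11 astrocyte markers, cells that also make Apoe and Abca1, was 6178 to 6736 CPM in young, 6772 to 7483 in old control and 6505 to 8068 in old anti-miR-mix libraries. It thus moved with age: every old control library was above every young one (exact permutation test, two-sided, p = 0.00216 over 924 arrangements, the smallest they can give). The general microglial sum did so too (exact permutation p = 0.00216), with a log2 difference of 0.19 against 0.11 for astrocytes. For the activated microglial sum the difference with age was 0.21 (exact permutation p = 0.0823). For Apoe, 5 of 6 old control libraries were above every young one. With old control 5 and 6 as 1 library the permutation p was 0.00216 for astrocytes and 0.00866 for general microglial markers, over 462 arrangements. The astrocyte and both microglial sums were higher with age in 3 of 3 processing groups. Of the 11 astrocyte markers edgeR called 2 higher and 1 lower with age (5 higher and 1 lower at an unadjusted p under 0.05), 4 higher in old anti-miR-mix against young, and 0 between the old groups (4 higher at an unadjusted p under 0.05). The 2 treated libraries with the lowest activated microglial sums, old anti-miR-mix 1 and 6 at 246.7 and 228.6 CPM, were also lowest of the 7 for Apoe, Apoc1, Abca1, Soat1, Plin2 and Lipa. Old anti-miR-mix 4, the highest at 455.3 CPM, was also highest for Ch25h, Soat1, Plin2, Npc2 and Lipa. The same library had the lowest CA1 pyramidal sum of the 19 (773.5 CPM) and the highest border macrophage sum (18.8 CPM). Over the 19 libraries Soat1 correlated at -0.79 with the CA1 pyramidal sum and 0.79 with a sum of thalamic markers. With the activated microglial sum it correlated at 0.70. The part of these markers in the differences of the 10 genes was not tested.

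**Figure D4:**
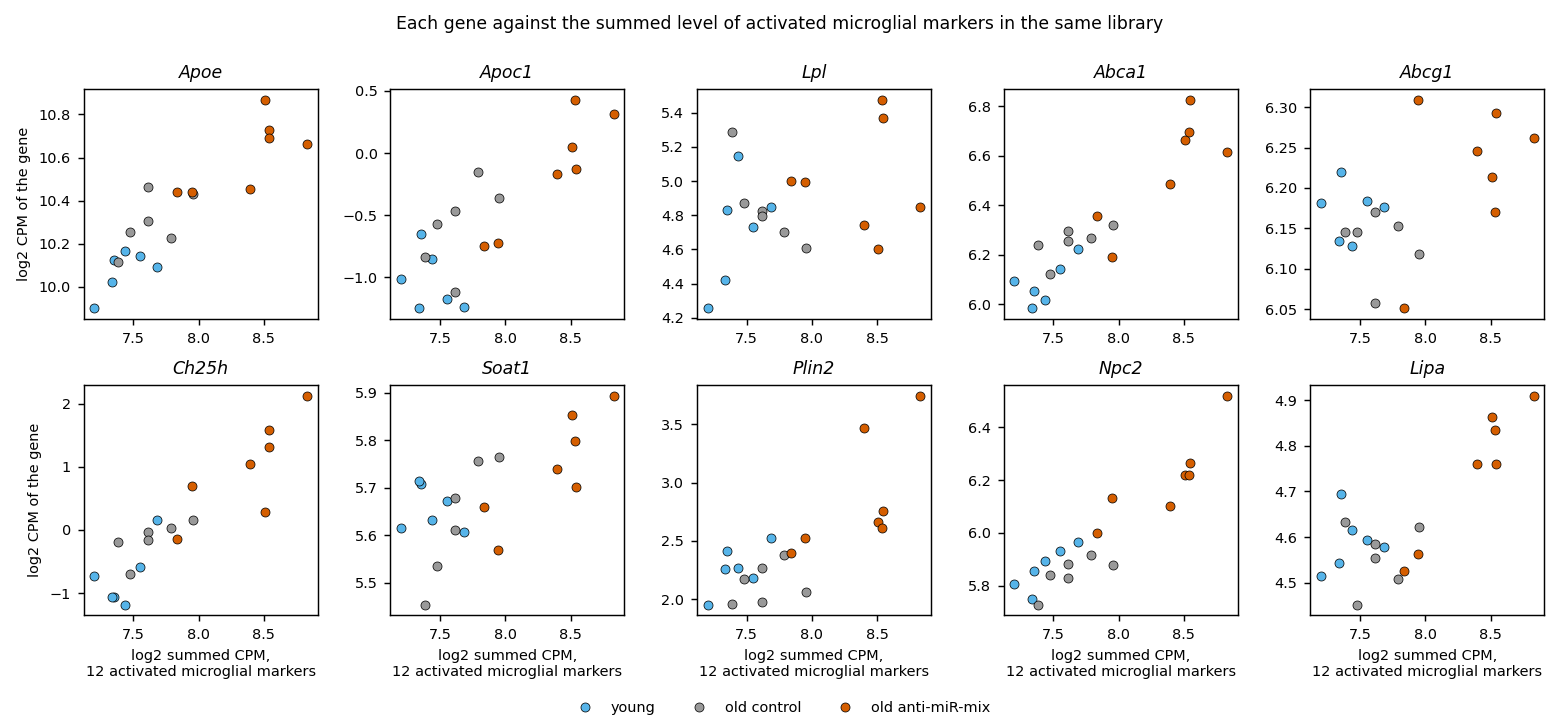
Level of each gene (log2 CPM) against the log2 of the summed CPM of 12 activated microglial markers in the same library, coloured by group. Apoe, Abca1, Ch25h and Npc2 run with the marker sum across the 19 libraries, whereas Lpl and Abcg1 scatter.

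For each of the 10, the tested genes most like it were taken as those with the highest Pearson correlation of log2 CPM over the 19 libraries, which share the group differences above. Nearest to Apoe were Itgax, Trem2 and Cd22 (r = 0.96, 0.95 and 0.95, and 0.83, 0.80 and 0.81 once group means were removed), genes of microglial surface receptors. For Abca1 they were Cd84, Myo1f and Ccl6 (0.95, 0.95 and 0.94), and for Npc2 Ctsl, Grn and Ucp2 (0.97, 0.97 and 0.96), the first a lysosomal protease and the second the precursor of granulins. Nearest to Ch25h were Tent5c, Cd180 and Hmox1 (0.93, 0.93 and 0.92), to Plin2 Samhd1, Ccr7 and Zfp36 (0.92, 0.91 and 0.91), and to Lipa Cxcr4, Lgmn and Hexa (0.88, 0.88 and 0.86). Apoc1 was closest to Mob1a, Arhgap30 and Vwa5a (0.89, 0.88 and 0.87). Lpl was nearest to Rgs19, Penk and Golm1 (0.90, 0.87 and 0.86), with Penk a neuropeptide precursor. Abcg1 was nearest to Tfeb, Pnpla2 and Ttyh2 (0.88, 0.82 and 0.82), and Soat1 to Trp53inp1, Cav1 and Itga5 (0.87, 0.86 and 0.85). Once group means were removed, the correlations lay between 0.70 (Apoc1 with Vwa5a) and 0.90 (Npc2 with Ctsl). For Ch25h with Cd180 the value came to 0.77 and for Abca1 with Ccl6 to 0.82. All fell except those of Lpl with Penk and Abcg1 with Tfeb. These are the highest of many correlations and no test is attached to them.

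The wider circuit was followed in 96 other genes of lipid transport, storage and breakdown, of which 91 passed the count filter. Between the old groups 3 of the 91 were called higher and 0 lower (edgeR, against 0.669% and 0% of all genes), and all 3 belong to the lysosomal list of 22 genes. Among them were Hexa 0.27 (edgeR adjusted p = 0.0240), which encodes a lysosomal hydrolase subunit, and Tfeb 0.34 (edgeR adjusted p = 0.0255), a transcription factor of lysosomal genes. Of those 22, 21 had a difference above 0, with a median of 0.06, where 50.2% of all genes were above 0. Tfeb ranged from 3.00 to 3.19 log2 CPM in old control and from 3.16 to 3.59 in old anti-miR-mix libraries, so that the groups overlapped slightly. None of the 3 passed with processing group as a factor or with old control 5 and 6 as 1 library, and Hexa and Tfeb passed in 11 and 12 of 19 fits that each left out a library. With the processing group number as a linear term 2 of the 91 were called, and with limma on the deposited values 4. No gene of the lists for lipoproteins and their receptors (17 tested), efflux and liver X receptor (15), oxysterols (10) or droplets and fatty acid uptake (27) was called between the old groups by edgeR; over all 91, 16 were higher and 3 lower at an unadjusted p under 0.05, against 7.16% and 3.35% of all genes, and DESeq2 called 4.

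Against young, 12 of the 91 were called higher in old anti-miR-mix animals and 0 lower (edgeR, against 4.57% and 1.63% of all genes), and 5 were lower at an unadjusted p under 0.05, against 8.31% of all genes. Among droplet and uptake genes these were Plin3 0.27 (edgeR adjusted p = 0.0285) and Plin4 0.81 (0.0138), which coat droplets as Plin2 does, the lipase Lipe 0.21 (0.0478), and the scavenger receptors Msr1 1.83 (0.0391) and Olr1 1.43 (0.0373). Msr1 had 6 to 20 reads in young and 11 to 86 in treated libraries, and Olr1 1 to 5 and 2 to 16, so that their folds are loosely set. These calls near the threshold were not stable: of 19 fits that each left out a library, Lipe passed in 6, Msr1 in 11, Olr1 in 13 and Plin3 in 13, and of the other settings Lipe passed in 2 of 10, Msr1 in 8 of 10, Olr1 in 3 of 9 and Plin3 in 7 of 10 (adjusted p up to 0.111, 0.0812, 0.0872 and 0.0704). Of the oxysterol genes, Cyp27a1, which makes 27-hydroxycholesterol, was higher by 0.52 (edgeR adjusted p = 0.00579) and Gpr183, the receptor for a product of 25-hydroxycholesterol, by 0.73 (0.0188), though not with the 2 groups alone (0.0598). Also higher were the lysosomal genes Hexa 0.29 (edgeR adjusted p = 0.00214) and Gm2a 0.22 (0.00110), the lipoprotein gene Apod 0.56 (0.00989) and Srebf1 0.34 (0.000851), which encodes a regulator of fatty acid synthesis. With age alone 2 of the 91 genes were called higher and 0 lower, where edgeR called 1.32% of all genes higher and 1.34% lower, so that the share lay near the background (3 were lower at an unadjusted p under 0.05, against 8.92% of all genes). The 2 higher genes were Srebf1 0.28 (edgeR adjusted p = 0.0174) and Mylip 0.30 (0.0337), which encodes a ligase that degrades lipoprotein receptors, and both are known liver X receptor targets. Over the 15 genes of the efflux and liver X receptor list, which holds both, the median with age was 0.013, with 9 above 0. Between the old groups the median of that list was -0.0063, with 7 above 0. Srebf1 passed in all 10 other settings and in 19 of 19 fits that each left out a library, whereas Mylip passed in 7 of 10 and 11 of 19: it was lost with processing group in the fit (0.31, edgeR adjusted p = 0.0571), with old control 5 and 6 summed (0.30, edgeR adjusted p = 0.0580), and without old control 2, 5 or 6 or young 1, 3, 4, 5 or 6. The medians over the 91 were 0.01 with age, 0.04 with treatment and 0.03 against young, below those of the 10 genes in each comparison.

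**Figure D5:**
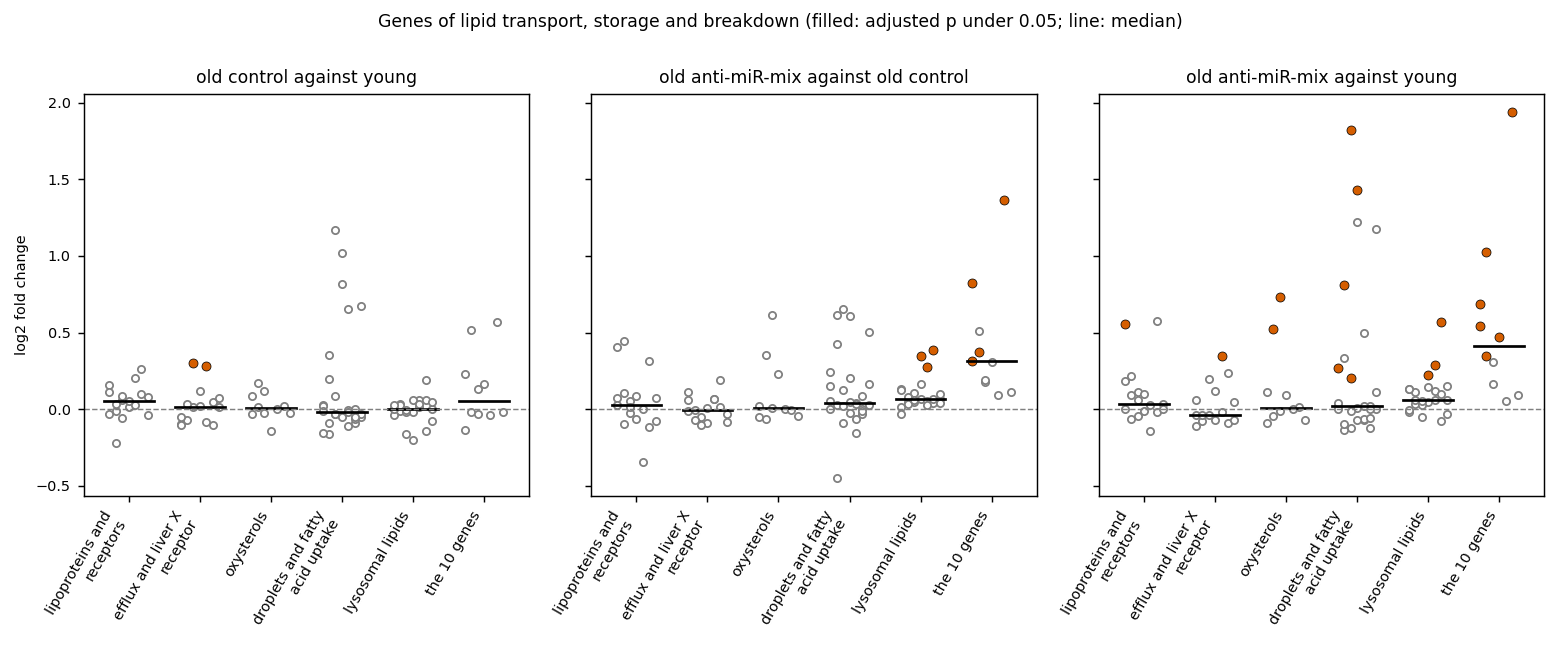
Fitted log2 fold change of each tested gene of the 5 wider lists and of the 10 genes (points, filled where the edgeR adjusted p is under 0.05) with the median of each list (line) in the 3 comparisons. Filled points between old anti-miR-mix and old control lie only in the lysosomal list and among the 10 genes.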

How the data were processed

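CA1 tissue of 19 male mice was profiled, with groups and ages from the labels. The members and gene lists were chosen with earlier results of these data known. Libraries of polyadenylated RNA (TruSeq v2) were read from a single end on a HiSeq2000. By the submitters' processing notes the authors aligned to mm10 with STAR 2.5.2b and made counts per Ensembl gene with featureCounts (Subread 1.5.1). Strand settings and annotation release are not given in the sources used here. Deposited were these raw counts and, for 18761 genes, log2 values. The latter equalled log2(CPM + 1) less a gene's slope multiplied by a whole number, 1 to 4, specific to the library (largest residual 3.4e-08), and that number is the processing group. All columns were assigned (0 without a library).

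Symbols, coordinates and transcripts came from GENCODE M21 (GRCm38), and microRNA sequences from RefSeq (GRCm38.p6). Genes reaching 5 reads in 50% of libraries or more entered the test (99.95% of reads), with TMM normalisation and the test of edgeR 4.0.16 (quasi-likelihood, all 3 groups in one fit, no covariate; R 4.3.3). Adjusted p-values are Benjamini-Hochberg values over 19286 genes, with a threshold of 0.05. Log2 CPM used a prior count of 2. Differences are log2 fold changes with SE or 95% intervals. A count of 0 allows up to 3 reads. In the main fit, edgeR p-values rest on the spread between libraries within groups, estimated per gene from all 3 groups together and moderated over all genes. They do not use a separate spread for each group. Marker sums were compared by an exact permutation test over libraries. Alternatives were DESeq2 1.42.0, limma 3.58.1 on the deposited log2 values, other scalings, filters and covariates, a replicate block, and leaving out each library. The fit with processing group and with old control 5 and 6 summed together, and all alternatives for the marker lists, were added after seeing the data. Named genes were the 10, called genes of the wider lists (8 per comparison and direction by lowest p; against young the other 4, Plin3, Olr1, Msr1 and Lipe, were added after their values were seen) and the 3 nearest genes of each member. Some items that these rules name are not reported here. Scripts were tested on simulated counts. The fold changes and p-values of the study were not used.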

Additional observations from a re-analysis of the deposited data

How the results depend on the processing

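The direction of all 10 differences was the same under every alternative run for old anti-miR-mix against old control and against young. With age, 8 values in 3 genes with a difference near 0 changed sign. With processing group as a factor, Soat1, Npc2 and Lipa came to 0.00054, 0.0308 and 0.0085, with old control 5 and 6 also summed to 0.0022, 0.0244 and 0.00029. When single libraries were left out Soat1 ranged from -0.0479 to 0.0123 and Npc2 from -0.0443 to 0.00099, both above 0 without old control 2. The cause was not tested.

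Between the old groups the count of 4 called genes came to 1 when only the 2 groups were fitted, 0 when processing group was a factor, 2 with its number as a linear term, 1 with old control 5 and 6 as 1 library, 2 with limma on the deposited values and 0 with processing group and the summed pair together. It lay between 1 and 6 when single libraries were left out: 6 without old anti-miR-mix 1 or 6, and 1 without old anti-miR-mix 3, 4 or 5, old control 1, 2, 5 or 6, or young 5 or 6, and 2 without old anti-miR-mix 2 or 7 or old control 3 or 4. Npc2 passed in 19 of 19 of these fits, Apoe in 8, Ch25h in 7 and Plin2 in 6. The number of all tested genes called changed as well. It was 129 in the main fit, 247 and 232 without old anti-miR-mix 1 and 6, and 24 to 107 where leaving out a library left 1 of the 10 called. It was 55 with the 2 groups alone, 9 with processing group as a factor, 93 with the linear term, 33 with the pair summed and 144 with limma. Against young it lay between 897 and 1268 without single libraries. The count of 3 wider genes came to 1 with the 2 groups alone, 2 with the processing group number as a linear term, and 0 with processing group as a factor, with the pair summed or with both. It lay between 0 and 5 without single libraries (0 without old anti-miR-mix 2, 3 or 4 or old control 1, 2, 5 or 6, and 1 without old anti-miR-mix 5). The count against young lay between 5 and 7 for the 10 genes and between 8 and 13 for the wider genes, of which 8 passed without old anti-miR-mix 4 or young 6. With age the count of 0 came to 1 (Apoe) with DESeq2, with the 2 groups alone and with processing group as a factor, and stayed at 0 without any single library. The count of 2 wider genes came to 1 with processing group as a factor, with the pair summed and with both, and lay between 1 and 3 without single libraries (1 without old control 2, 5 or 6 or young 3, 4, 5 or 6, and 1 higher and 1 lower without young 1).

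Same-numbered libraries correlated between -0.17 and 0.21. Differently numbered libraries were not computed for reference, so whether replicate numbers pair the animals was not settled. With the replicate block, 5 of the 10 genes (Abca1 added) and 5 of the wider genes were called between the old groups. A prior count of 0.5 moved the mean levels of Apoc1 and Ch25h by up to 0.15 and 0.13 and those of the other 8 genes by at most 0.02, and with 6-base or 8-base seed matches the genes with a match were 5 or 1 for miR-146a-5p, 6 or 1 for miR-148a-3p and 6 or 1 for miR-181a-5p. Apoc1 and Ch25h, at 12 to 43 and 10 to 142 reads, are limited by depth.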

Other observations

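Of the 96 wider genes, 5 did not pass the count filter: Apoc2 and Hsd3b7 had 0 reads in every library, and Gpihbp1, Plin1 and Apoc4 had at most 1, 4 and 7. A count of 0 in a single library allows up to 3 reads there, and 0 in every library allows fewer per library. Markers of oligodendrocytes, the cells that make the cholesterol-rich myelin, had a summed level of 7374 to 11701 CPM in young, 6509 to 7754 in old control and 6623 to 9795 in old anti-miR-mix libraries. Of 9 such markers, 5 were lower with age by edgeR's test, against 1.34% of all genes. There were 4 with processing group in the fit, 4 with old control 5 and 6 summed and 2 with both. By edgeR 0 were called between the old groups (1 by DESeq2), where all 9 differences were above 0 and 7 had an unadjusted p under 0.05.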
